A study of Mus musculus with 18 samples.

Results

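Tumoroids grown from 1 autochthonous EGFR-mutant mouse lung tumor were compared with tumoroids from 6 transplanted alveolar tumors. These 7 libraries were chosen by their labels from the 18 of the series and are the only ones that enter the ranges below. The mice carry a lox-stop-lox transgene of human EGFR with the T790M and L858R mutations, placed in the Col1a1 locus behind a CAG promoter, so that any cell that receives Cre can express it. The autochthonous tumoroid (n = 1, titled 1000 and labelled as transformed in vivo) came from a tumor that arose in such a mouse after adenoviral Cre was given through the nose. It was not sorted and not transplanted, its cell of origin is not given, and it stands for 1 animal. The transplant tumoroids came from AT2 cells (n = 3) or from mixed cultures of bronchioalveolar stem cells (BASC mixed, n = 3). Those cells were infected with Adeno-Cre after sorting, then grown as organoids and instilled into the trachea of nude mice, which lack T cells. The AT2 tumoroids carry an NGFR negative sorting label beside their AT2 origin. The 6 share only 4 title numbers, and the labels do not say whether tumoroids of 1 number came from 1 mouse. All tumors were dissociated and propagated in Matrigel with lung supporting cells before RNA was taken, and all 7 libraries were made and sequenced on the DNBSEQ platform. Transplantation, the immune state of the host, the route of Cre and the individual animal cannot be told apart here, and the human transgene was not analysed.

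Each library's total of expected counts was 23355938 for the autochthonous tumoroid and ran from 15327265 to 23000685 for the other 6. Values are CPM, each gene's share of a library's counts scaled to a common total, after TMM scaling over the 7 libraries, and differences are on a log2 scale. Alveolar markers were present in the autochthonous tumoroid. Sftpc, which encodes surfactant protein C and marks AT2 cells, stood at 53830 CPM, inside the 9601 to 64930 CPM of the transplant tumoroids. Airway markers were mixed. Scgb1a1 was at 1.34 CPM, Sox2 at 0.134 CPM, which is the level of 3 counts, and Scgb3a2 and Krt5 had no count. The club cell marker Cyp2f2 stood at 521.8 CPM, near the top of the 58.5 to 542.1 CPM of the 6, and the basal marker Krt14 at 2.19 CPM, inside their 0.0619 to 7.82 CPM. AT2 replicate 3 held the most fibroblast RNA, with Col1a1 at 4349 CPM and Sftpc at only 9804 CPM. BASC mixed replicate 2 held airway transcripts, with Scgb1a1 at 745 CPM and Sox2 at 22.6 CPM. Counts of gene groups are also given with 1 of the 6 left out wherever that moved them by more than 1.5 times and by at least 2 genes. Without AT2 replicate 3 the shares over all genes rose as well, to 18.5% above and 21.0% below the range. With any other of the 6 left out they were 14.7% to 17.5% above and 17.5% to 21.0% below. In bulk libraries, fewer cells of a type and less RNA per cell cannot be told apart.

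AT2 cells make and secrete surfactant, and they renew themselves and give rise to the flat AT1 cells that exchange gas. Bronchioalveolar stem cells sit where the terminal airway meets the alveoli and can form both lineages. Mutant EGFR signals through the ERK and PI3K pathways, whose outputs include cell cycle entry and glycolysis.

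With 1 library on one side no test was made. A gene was instead kept when the autochthonous value lay above the highest or below the lowest of the 6, and the gap is its log2 distance to the nearest of them. Of 14080 genes with a mean of at least 1 CPM, 1966 lay above the range (14.0%), 2431 below it (17.3%) and 9683 inside. The mean is over all 7 libraries, and 80 genes reached it only through the autochthonous value, of which 59 lay above the range and none below. The median gap was only 0.21. The autochthonous tumoroid lay at least 2-fold beyond the range for 110 genes above (0.781%) and 149 below (1.06%). Just past this threshold lay 2210011C24Rik with a gap of 1.0001, and just under it Trim36 with 0.9993. These 4 percentages are the background against which the gene groups below are read. Above-range genes made up 44.7% of the 4397 outside the range, and 34.6% when libraries were scaled by their totals alone. The median difference over all genes tested was 0.0026, and the median SD of the 6 was 0.42.

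**Figure D1:**
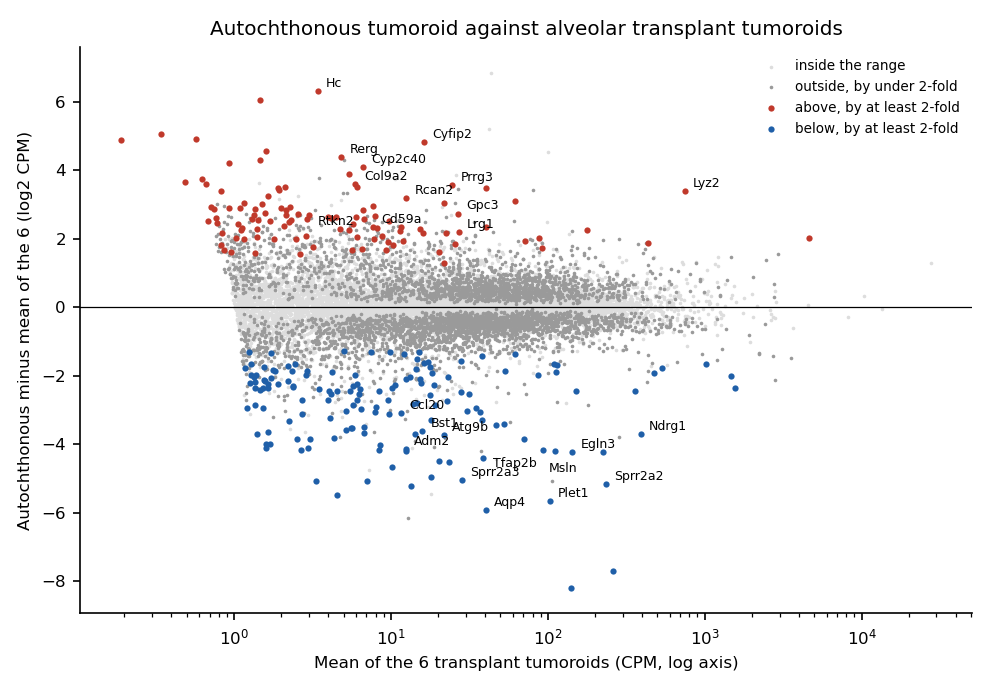
Each point is 1 of 14080 genes, with its mean CPM in the 6 transplant tumoroids on a log axis and the autochthonous value minus the mean of the 6 in log2 CPM. Red (110) and blue (149) points lay at least 2-fold above or below the range of the 6, and the 24 named genes are the 12 on each side with the largest gap among annotated genes with a mean of at least 10 CPM.

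The gene furthest above the range was Hc (chr2:34983331-35061438, GRCm38), which encodes complement component C5 and is made by AT2 cells. It stood at 149.7 CPM in the autochthonous tumoroid (95% Poisson interval of its count, 144.6 to 154.8). The AT2 tumoroids had 2.27, 0.880 and 0.248 CPM and the BASC mixed tumoroids 4.64, 0.961 and 11.5 CPM, so the autochthonous value was 12.9-fold above the nearest of the 6. Intervals of this kind cover counting error only. In AT2 organoids before transplantation, which were sequenced on another platform, Hc stood at 262.9 CPM with the control virus and 200 CPM with Adeno-Cre (scaled over all 18 libraries). The autochthonous value was thus of the size seen in AT2 organoids, and the 6 transplant tumoroids all lay far under both.

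Rerg (chr6:137054825-137170497), a small GTPase of the RAS family that restrains growth, was next at 84.2 CPM. The 6 transplant tumoroids had from 1.24 to 8.16 CPM with a median of 4.84, which left a 10.2-fold gap. Prrg3 (chrX:71962624-71972722), a membrane protein with a Gla domain, stood at 266.6 CPM against 10.8 to 37.8 CPM, a 7.04-fold gap. Lyz2 (chr10:117277331-117282321), which encodes the lysozyme of AT2 cells and macrophages, stood at 6108 CPM. Its values were 1702, 564 and 1135 CPM in the AT2 tumoroids and 423, 453 and 192 CPM in the BASC mixed tumoroids. Every AT2 tumoroid was above every BASC mixed tumoroid for Lyz2, and the nearest was still 3.59-fold under the autochthonous culture. Both AT2 organoids were again above all 6 transplant tumoroids for these genes, with Lyz2 at 9262 and 6417 CPM, Prrg3 at 177.0 and 139.2 CPM and Rerg at 45.1 and 38.3 CPM.

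The other 8 of the 12 genes furthest above the range had gaps from 2.73-fold to 3.18-fold. Cd59a (chr2:104095801-104115354), an inhibitor of the complement membrane attack complex, stood at 38.1 CPM against 4.21 to 11.9 CPM. Lrg1, a secreted glycoprotein of the acute phase response, stood at 119.8 CPM against 18.7 to 42.5 CPM, and Gpc3, a proteoglycan of the cell surface, at 134.2 CPM against 3.76 to 49.1 CPM. Rtkn2, which is high in AT1 cells, stood at 34.9 CPM against 2.602 to 12.5 CPM. Col9a2, a collagen of cartilage, was at 46.9 CPM against 0.681 to 15.1 CPM, and the cytochrome gene Cyp2c40, one of a family of close copies, at 61.0 CPM against 0.310 to 20.9 CPM. Rcan2, an inhibitor of calcineurin, stood at 73.6 CPM against 1.17 to 26.1 CPM. For Cyfip2, a part of the WAVE complex that builds actin networks, the 6 spread from 0.256 to 50.8 CPM and the autochthonous culture had 143.0 CPM.

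The largest gap below the range belonged to Aqp4 (chr18:15389496-15410982), a water channel. The autochthonous library held 9 counts, or 0.402 CPM (95% Poisson interval 0.184 to 0.763). The AT2 tumoroids had 9.75, 73.2 and 10.2 CPM and the BASC mixed tumoroids 29.1, 47.2 and 72.8 CPM, a gap of 19.9-fold on the log2 scale with a prior count of 2. Plet1 (chr9:50494525-50505482), a surface protein of progenitor cells, was at 1.52 CPM against 20.1 to 197.3 CPM, a 12.5-fold gap. Msln (chr17:25748613-25754378), the gene of mesothelin, a surface antigen of many lung adenocarcinomas, was at 5.27 CPM against 39.3 to 182.6 CPM. The AT2 organoids did not share these low levels in every case. Aqp4 stood at 59.1 and 85.1 CPM and Msln at 18.8 and 67.4 CPM there, whereas Plet1 was at 4.43 and 5.30 CPM.

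Tfap2b (chr1:19208914-19238576), a transcription factor that the AT2 organoids held at 0.476 and 0.854 CPM, stood at 4.47 CPM in the autochthonous tumoroid. In the transplant tumoroids it had 107.8, 153.9 and 26.4 CPM (AT2) and 95.4, 58.1 and 120.8 CPM (BASC mixed). All 6 alveolar transplant tumoroids expressed a factor that was low in the autochthonous tumoroid and lower still in the AT2 organoids. For Tfap2b the bronchiolar transplant tumoroid, at 5.21 CPM, was close to the autochthonous one. It was far above the autochthonous tumoroid for Aqp4 (496.8 CPM), Msln (653.7 CPM), Atg9b (284.1 CPM) and Egln3 (354.2 CPM), scaled over all 18 libraries. Sprr2a2 and Sprr2a3, which encode cornified envelope proteins, stood at 4.15 and 0.357 CPM in the autochthonous tumoroid against at least 63.3 and 4.21 CPM in the 6. They are near-identical copies among which reads can be split, so their single values are uncertain.

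Of the rest, Adm2, a hormone of the calcitonin family, stood at 0.536 CPM against 5.51 to 22.2 CPM, and Atg9b, an autophagy gene, at 1.25 CPM against 7.93 to 44.8 CPM. Bst1, an enzyme of NAD metabolism, was at 0.670 CPM against 4.29 to 61.6 CPM. The chemokine gene Ccl20 was at 0.938 CPM against 4.75 to 33.7 CPM. Ndrg1 and Egln3, the remaining 2 of the 12, belong to the response to low oxygen described below.

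**Figure D2:**
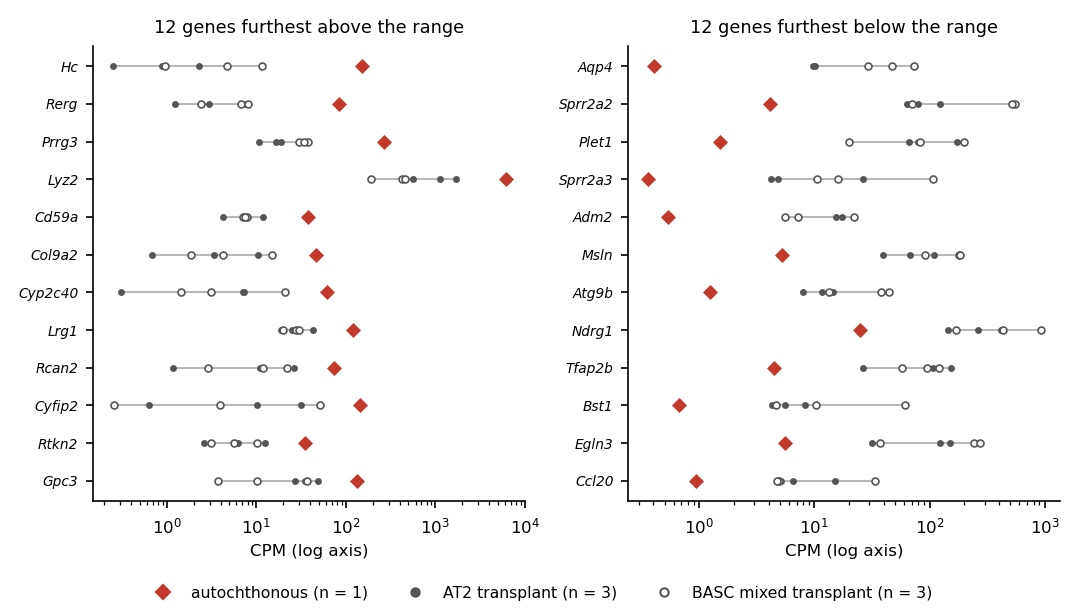
CPM on a log axis for the 12 genes with the largest gap above (left) and below (right) the range. Red diamonds are the autochthonous tumoroid, filled circles the 3 AT2 and open circles the 3 BASC mixed transplant tumoroids, and the grey line spans the 6. For Prrg3 and Cd59a the 6 lie close together, while for Cyfip2 they spread from 0.256 to 50.8 CPM.

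Genes of AT2 cells were higher in the autochthonous tumoroid as a group. Of 25 AT2 genes, 12 lay above the range (48.0%) and none below, and all 25 were higher than the mean of the 6, with a median difference of 1.07. The genes of the surfactant proteins were not among the 12. Sftpc, Sftpb, Sftpa1 and Sftpd all lay inside the range, as did Nkx2-1, the transcription factor of lung identity, at 254.8 CPM against 77.7 to 455.0 CPM. Slc34a2, the phosphate transporter of AT2 cells, stood at 5818 CPM against 1165 to 3656 CPM. Abca3, which loads lipid into lamellar bodies, stood at 2039 CPM, while the AT2 tumoroids had 1360, 1070 and 415 CPM and the BASC mixed tumoroids 969, 656 and 819 CPM. Scd1, a fatty acid desaturase, stood at 16970 CPM against 1988 to 8323 CPM. The count was 12 to 15 with any 1 of the 6 left out. Against the AT2 tumoroids alone it was 12, beside 18.8% of all genes tested. Against the BASC mixed tumoroids alone it was 21, but the share of all genes above the range was higher there too. A range of 3 libraries is easier to leave than one of 6.

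Of 20 AT1 genes 9 lay above the range (45.0%) and Pdpn alone below it, with a median difference of 0.84. Igfbp2 stood at 31.4 CPM against 2.66 to 14.7 CPM. Sec14l3 was at 448.3 CPM against 15.6 to 362.6 CPM, and Ager, the receptor RAGE, at 3287 CPM against 521 to 3135 CPM, just past the range. Pdpn, a surface glycoprotein of AT1 cells, was at 43.1 CPM against 50.9 to 232.1 CPM. Hopx, another AT1 marker, lay inside.

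Of 20 genes of the transitional state between AT2 and AT1 cells, 5 lay below the range (25%) and 2 above, and their mean level lay inside. Without AT2 replicate 3, 10 of the 20 lay below. Cldn4, a tight junction gene that defines this state, was at 18.4 CPM against 29.9 to 399.8 CPM, and Tnip3, an inhibitor of NF-kappaB signalling, at 2.28 CPM against 6.75 to 37.2 CPM. Club, basal and lung transcription factor lists had their mean levels inside the range. Of 14 club genes 1 lay above and 1 below, but 6 lay below without AT2 replicate 3, 3 below without AT2 replicate 2 and 3 above without BASC mixed replicate 2. Bpifa1, a secreted airway protein, was nevertheless at 2.55 CPM against 8.65 to 1166 CPM, and Krt15 was above the range at 13.7 CPM against 0.248 to 8.63 CPM. Trp63, the basal cell factor, was at 0.447 CPM against 0.917 to 24.4 CPM. The transcription factors Klf4, Irx3 and Tfcp2l1 lay above the range by gaps of at most 0.34 and Etv4, a target of ERK signalling, below it by 0.09, so that 30 of 34 lung factors were inside. Leaving out any 1 of the 6 raised the count above from 3 to 5 or 6, beside 14.7% to 18.5% of all genes tested. Without AT2 replicate 3 the count below rose from 1 to 7, beside 21.0% of all genes. These counts were near the shares over all genes.

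**Figure D3:**
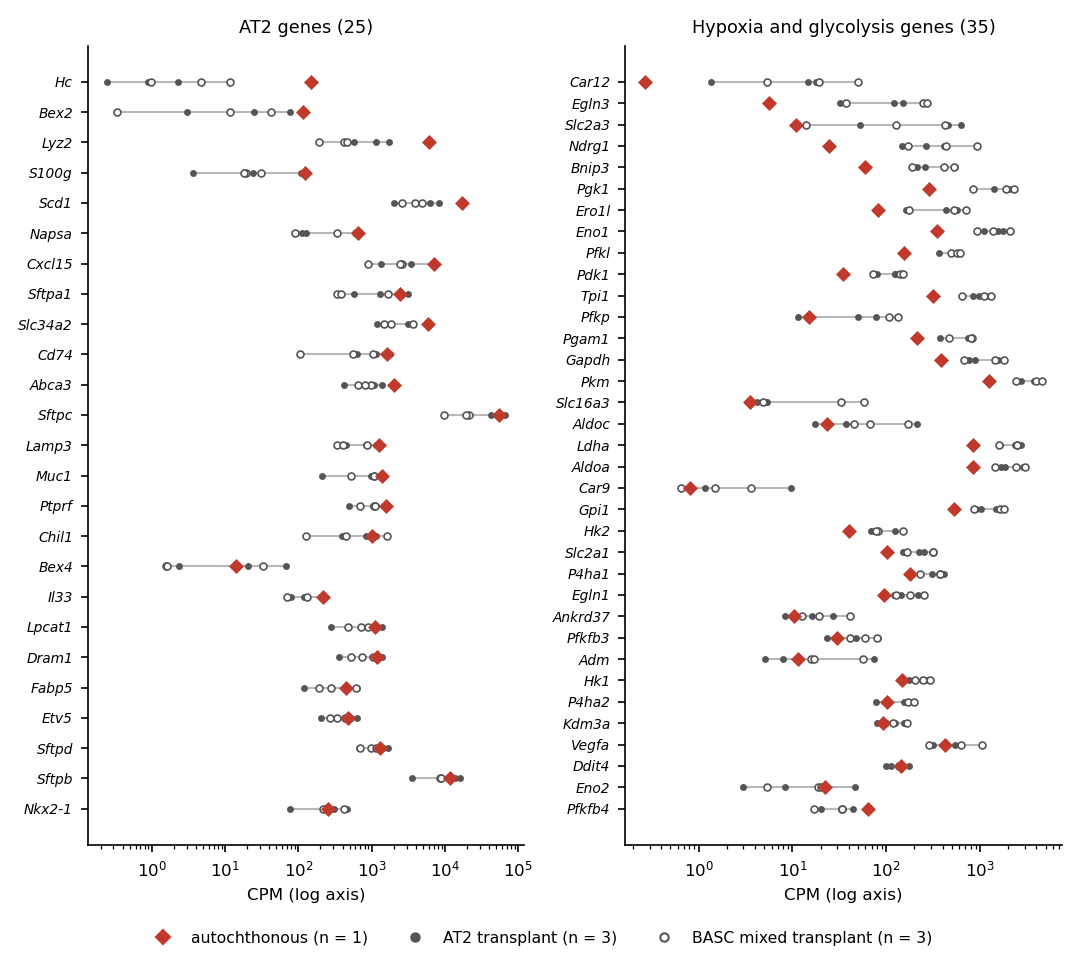
CPM on a log axis for all 25 AT2 genes and all 35 hypoxia and glycolysis genes, sorted by their difference, with symbols for single libraries (red diamonds autochthonous, filled circles AT2, open circles BASC mixed) and a line over the 6. The red diamonds sit to the right of all 6 for 12 AT2 genes and to the left of all 6 for 23 hypoxia genes.

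Cell cycle genes were lower in the autochthonous tumoroid almost without exception. Of 53 S phase genes 48 lay below the range (90.6%) and none above, with a median difference of -0.79. Of 53 mitosis genes 49 lay below (92.5%) and none above, with a median difference of -1.11. Each step was small, since no S phase gene and only 2 mitosis genes were 2-fold below the range, but the 6 were close together. Mki67, the proliferation marker Ki-67, stood at 86.4 CPM against 166.7, 169.6 and 186.5 CPM (AT2) and 119.7, 190.9 and 160.4 CPM (BASC mixed).

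Among replication genes, Rfc4, part of the clamp loader, stood at 6.34 CPM against 11.6 to 19 CPM. Prim1, the DNA primase, was at 10.4 CPM against 18.2 to 34.0 CPM and Mcm7, part of the replicative helicase, at 67.1 CPM against 108.9 to 129.1 CPM. Among mitotic genes, Ttk, the kinase that starts the spindle checkpoint, had 5.45 CPM against 11.8 to 25 CPM. Bub1b, a checkpoint kinase, was at 27.1 CPM against 54.0 to 75.9 CPM, Tacc3, a spindle protein, at 23 CPM against 46.0 to 86.2 CPM, and Ccnb1, the mitotic cyclin, at 21.6 CPM against 42.8 to 81.2 CPM. Leaving out any 1 of the 6 left 48 to 50 of the S phase genes and 48 to 51 of the mitosis genes below the range.

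The promoters of these genes carry known cell cycle elements, and a window of 2 genes of each list is printed from the RefSeq promoter table (GRCm38.p6, 250 bases before to 50 after the start). The E2F motif searched was TTTNNCGC and the cell cycle homology region TTTGAA, on both strands. The E2F motif occurred in 20 of 42 S phase promoters in the table (47.6%), against 9.61% of the 10402 promoters of genes tested and 5.93% of all 27025. The TTTGAA motif occurred in 31 of 44 mitosis promoters (70.5%), against 14.4% of genes tested and 20.2% of all. Among the genes below the range the shares were 51.4% of 37 and 73.2% of 41. Each line gives the motif in capitals with 30 bases on each side, read along the gene's strand, and a capital run that reads GCGGGAAA or TTCAAA is the motif on the other strand. The windows are Mcm7 (chr5:138172011-138172078, minus strand), Hells, a chromatin remodeller (chr19:38930898-38930965, plus), Kif22, a chromosome kinesin (chr7:127042600-127042665, minus) and Ect2, an activator of cytokinesis (chr3:27153957-27154022, minus).
Mcm7: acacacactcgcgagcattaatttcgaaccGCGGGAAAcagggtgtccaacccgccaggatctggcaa
Hells: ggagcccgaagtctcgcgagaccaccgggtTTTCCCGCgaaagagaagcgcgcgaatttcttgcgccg
Kif22: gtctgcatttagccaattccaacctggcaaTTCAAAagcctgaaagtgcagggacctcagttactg
Ect2: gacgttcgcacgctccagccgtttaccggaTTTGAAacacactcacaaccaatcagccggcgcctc
The gaps of these genes were -0.70 for Mcm7, -0.53 for Hells, -0.78 for Kif22 and -0.74 for Ect2. Between the motif and the start lay 157 bases for Mcm7, 54 for Hells, 209 for Kif22 and 108 for Ect2. A match of letters is a description and does not show a factor at the site.

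MYC targets and genes of ribosome biogenesis followed with smaller steps. Of 50 genes 31 lay below the range (62.0%) and only Heatr1 above, with a median difference of -0.36. On the log2(TPM + 1) scale 20 lay below, and without BASC mixed replicate 1 the count above was 3. Nop58, a core protein of box C/D particles, stood at 42.9 CPM against 60.7 to 70.1 CPM, and Noc2l at 51.0 CPM against 71.9 to 107.0 CPM. Heatr1, which also acts in ribosome biogenesis, was at 100 CPM against 26.9 to 64.6 CPM. Myc itself lay inside at 97.7 CPM against 52.2 to 128.0 CPM.

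The regulators of the cell cycle, as opposed to its machinery, showed no shared direction. Of 18, 12 lay inside, 4 below (22.2%) and 2 above (11.1%), the last becoming 5 without AT2 replicate 1. Their mean level lay inside the range, but their summed level of 1848 CPM lay below the 1901 to 2362 CPM of the 6. Ccnd1, the G1 cyclin, was at 436.4 CPM against 509.4 to 705.3 CPM and Cdk4 at 208.4 CPM against 244.8 to 414.7 CPM. Rbl1, a pocket protein that is itself a target of E2F, was at 18.7 CPM against 25.8 to 47.6 CPM. Rbl2, the pocket protein of resting cells, was above at 44.1 CPM against 23.5 to 39.99 CPM, and Cdkn2b, an inhibitor of CDK4, at 72.4 CPM against 40.9 to 64.7 CPM. Of 29 p53 targets 5 lay above (17.2%) and 1 below, but 10 lay above without BASC mixed replicate 1 and 3 with total counts or log2(TPM + 1). They included Phlda3 at 48.3 CPM against 4.25 to 34.0 CPM and Ddit4l at 4.42 CPM against 0.0489 to 1.98 CPM, while Trp53 and Cdkn1a lay inside.

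Genes of the response to low oxygen and of glycolysis had the lowest median difference of the 29 lists described here. Of 35 genes 23 lay below the range (65.7%), 9 of them by 2-fold or more, and Pfkfb4 alone lay above, with a median difference of -1.36. Ndrg1 (chr15:66929318-66969640), a stress-response gene induced by low oxygen, stood at 24.7 CPM. The AT2 tumoroids had 146.0, 413.3 and 266.0 CPM and the BASC mixed tumoroids 169.0, 431.1 and 923.9 CPM, a 5.88-fold gap. Egln3 (chr12:54178981-54203860), a prolyl hydroxylase that marks HIF for destruction and is induced by it, was at 5.58 CPM. It stood at 31.8, 151.2 and 122.3 CPM in the AT2 and 37.05, 244.6 and 274.8 CPM in the BASC mixed tumoroids, a 5.62-fold gap. Car12, a carbonic anhydrase, had 6 counts, or 0.268 CPM, against 1.35 to 49.6 CPM. AT2 replicate 1 and BASC mixed replicate 1 were the lowest of the 6 for Ndrg1, Egln3, Bnip3 and Pgk1, and the autochthonous value lay under both.

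Within glycolysis the lower levels covered consecutive enzymes. Hk2, Gpi1, Pfkl, Aldoa, Tpi1, Gapdh, Pgk1, Pgam1, Eno1, Pkm and Ldha all lay below the range. Pgk1 stood at 283.7 CPM against 846.0 to 2330 CPM, Eno1 at 352.3 CPM against 933.6 to 2075 CPM, and Ldha, which makes lactate, at 847.7 CPM against 1604 to 2723 CPM. Pdk1, which keeps pyruvate out of the mitochondria, was at 34.8 CPM against 72.6 to 151.2 CPM. The glucose transporter Slc2a1 was at 101.2 CPM against 151.5 to 318.1 CPM. Several of these enzymes have processed pseudogenes, so single values are uncertain. With its annotated copies summed, Pgk1 still stood at 305.1 CPM against 934.5 to 2658 CPM. Vegfa, Adm and Car9, which HIF also induces, lay inside the range, and Pfkfb4, an enzyme that sets the level of a glycolytic activator, stood above at 64.3 CPM against 17.0 to 44.6 CPM. Leaving out any 1 of the 6 left 23 to 26 genes below the range.

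The core of the hypoxia response element, ACGTG on both strands, occurred in 21 of 32 promoters of this list in the RefSeq table (65.6%) and in 14 of the 20 below the range (70.0%), against 28.9% of genes tested and 21.8% of all. Windows of Bnip3, a mitophagy gene (chr7:138909579-138909643, minus strand) and Pgk1 (chrX:106186939-106187003, plus), chosen by the same rule, are shown with a match in capitals. The match reads CACGT where it lies on the other strand. Between it and the start lay 102 bases for Bnip3 and 126 for Pgk1.
Bnip3: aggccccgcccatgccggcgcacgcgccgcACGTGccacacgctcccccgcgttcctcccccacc
Pgk1: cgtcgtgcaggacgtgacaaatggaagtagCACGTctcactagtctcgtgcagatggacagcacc
The Pgk1 window holds a further match to the left of the capitals. In the Bnip3 window the base before the capitals completes CACGT, an overlapping match on the other strand. Bnip3 stood at 59.9 CPM against 186.5 to 542.9 CPM, a gap of -1.64, and Pgk1 had a gap of -1.58.

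Set beside the other cultures, the 2 patterns differed. The mean log2 CPM of the S phase list, scaled over all 18 libraries, was 4.0952 in the autochthonous tumoroid, 4.26 in the bronchiolar transplant tumoroid and 4.66 to 5.07 in the 6. It was 3.46 and 3.20 in the AT2 organoids with the control virus and Adeno-Cre. The autochthonous culture was thus between the AT2 organoids and the tumoroids. For hypoxia and glycolysis it stood at 5.93, under the 6.74 to 8.03 of the 6, the 7.72 of the bronchiolar tumoroid and the 7.65 and 7.58 of the AT2 organoids. For AT2 genes it stood at 10.13, between the 9.72 and 10.21 of the AT2 organoids and above the 7.69 to 9.51 of the 6. The organoids were sequenced on another platform, which cannot be told apart from their state.

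**Figure D4:**
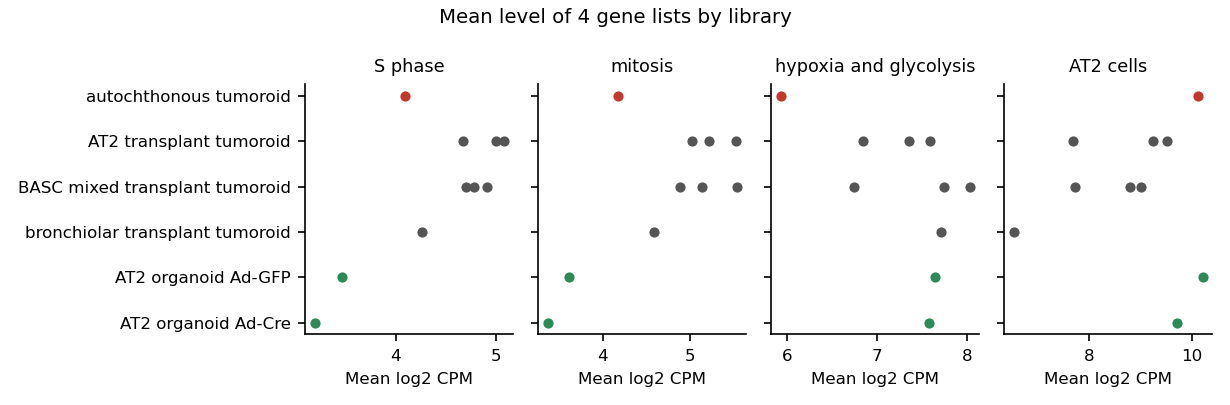
Mean log2 CPM over the genes of 4 lists in single libraries, scaled over all 18 libraries (red autochthonous, grey the transplant tumoroids, green the AT2 organoids of the other platform). The autochthonous tumoroid lies left of every transplant tumoroid for S phase, mitosis and hypoxia, and right of every transplant tumoroid for AT2 genes.

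Genes of EGFR signalling lay mostly inside the range. Mouse Egfr stood at 21.0 CPM, inside the 2.54 to 54.6 CPM of the 6. Of 17 genes of the EGFR family and its ligands 15 lay inside and 2 ligands lay below (11.8%), or 4 genes without AT2 replicate 3. Their mean level lay inside the range. The summed level of all 20 genes of the list was below it, at 1277 CPM against 1393 to 1712 CPM. Areg, the gene of amphiregulin, stood at 35.9 CPM against 55.6 to 258.9 CPM and Ereg, that of epiregulin, at 52.4 CPM against 75.4 to 217.7 CPM. Of 33 ERK targets 6 lay below (18.2%) and 1 above, close to the background of 17.3%, and without BASC mixed replicate 3 the count above was 4. Dusp6 and Spry4, which ERK signalling induces as its own inhibitors, lay inside. Egr3 was at 0.849 CPM against 1.13 to 2.66 CPM, and Fosb lay above by a gap of 0.04. Among 24 other receptor tyrosine kinases 6 lay above (25%) and 2 below. Met, the receptor of hepatocyte growth factor, stood at 188.6 CPM against 83.3 to 123.7 CPM, and Ret at 5.63 CPM against 0.7103 to 3.69 CPM. Ntrk2 was at 6.39 CPM against 1.12 to 4.73 CPM.

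Of 50 interferon-stimulated genes 17 lay below the range (34.0%) and none above, and 49 were lower than the mean of the 6. Their mean level lay inside the range all the same, because AT2 replicate 1 alone was lower still. Their summed level of 1192 CPM lay just below the 1200 to 4663 CPM of the 6. Oas2, an antiviral enzyme, held 1 count in the autochthonous library, or 0.0447 CPM. It stood at 0.289, 0.782 and 22.05 CPM in the AT2 tumoroids and at 10.5, 5.68 and 41.3 CPM in the BASC mixed tumoroids. Rtp4 was at 0.491 CPM against 1.496 to 50.7 CPM and Oas1a at 0.491 CPM against 1.11 to 62.6 CPM. Against the BASC mixed tumoroids alone 44 of the 50 lay below the range, beside 29.1% of all genes tested. Without AT2 replicate 1 the count was 33 of the 50, beside 21.0% of all genes. The mean log2 CPM of the list was 2.76 in the autochthonous tumoroid, 2.54 and 3.13 in AT2 replicates 1 and 2, and 4.30 to 5.55 in AT2 replicate 3 and the BASC mixed tumoroids.

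Of 34 inflammatory cytokine and chemokine genes 5 lay above and 5 below (14.7% each). The count above was 8 without AT2 replicate 3 and 3 with total counts. Il18, an inflammasome cytokine, was at 0.357 CPM against 1.20 to 4.15 CPM, and Il23a at 0.491 CPM against 0.961 to 2.94 CPM. Csf2, the growth factor GM-CSF, was above at 12.3 CPM against 1.11 to 8.76 CPM, and Icam1, an adhesion molecule, at 1178 CPM against 300.8 to 858.0 CPM. Of 16 complement and acute phase genes 4 lay above the range (25%), or 7 without AT2 replicate 3. Hc and Cd59a came first, and Clu, a secreted chaperone, lay below at 524.1 CPM against 611.9 to 5004 CPM. Lbp, which binds bacterial lipopolysaccharide, stood at 513.0 CPM against 184.2 to 269.8 CPM.

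Targets and regulators of WNT signalling were higher for 9 of 28 genes (32.1%) and lower for 2, with a median difference of 0.51. Axin2, the general readout of the pathway, stood at 23.5 CPM against 5.14 to 15.6 CPM, and Wif1, a secreted inhibitor, at 38.3 CPM against 0.867 to 15.9 CPM. Sp5, Notum, Rnf43 and Znrf3, all of which the pathway induces, were above the range as well, the last 2 by gaps of 0.04 and 0.02. Porcn, the acyltransferase that WNT secretion needs, and the ligand gene Wnt4 lay below, at 8.40 CPM against 9.91 to 156.5 CPM and 8.26 CPM against 11.1 to 91.0 CPM. Without AT2 replicate 3 the 9 became 14. The 9 include Lgr5, a receptor for R-spondins and a stem cell marker, at 8.57 CPM against 0.244 to 1.25 CPM. It passed the filter on low values only through the autochthonous tumoroid, and with a filter on the mean of the 6 alone 8 of 27 genes lay above (29.6%). The AT2 organoids had Lgr5 at 9.56 and 8.38 CPM.

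Of 28 targets of TGF-beta and YAP 12 lay above the range (42.9%) and 1 below, with a median difference of 0.48. Thbs1, the gene of thrombospondin, stood at 1251 CPM against 235.5 to 757.0 CPM. Ltbp2, a protein of elastic fibres, was at 935.8 CPM against 75.2 to 497.1 CPM and Bambi, a decoy receptor that TGF-beta and WNT both induce, at 58.8 CPM against 12.4 to 32.0 CPM.

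Genes of mesenchymal cells stood beside these. Of 10 smooth muscle and pericyte genes 5 lay above the range (50.0%) and none below, and their summed level was 669.6 CPM against 113.5 to 547.0 CPM. Their mean level, 4.39 in log2 CPM, lay inside the range, just under the 4.40 of AT2 replicate 3. Mylk, the myosin light chain kinase, stood at 262.4 CPM against 49.4 to 107.8 CPM, Cspg4, the pericyte marker NG2, at 66.7 CPM against 7.92 to 25 CPM, and Lmod1 at 4.96 CPM against 0.147 to 2.21 CPM. Acta2 was at 184.9 CPM against 8.84 to 137.8 CPM, while Tagln and Myh11 lay inside. Of 29 fibroblast genes 4 lay above (13.8%) and none below, and their summed level of 8767 CPM lay inside the 2576 to 23180 CPM of the 6, as did Col1a1 at 1341 CPM. AT2 replicate 3 was the highest of the 6 for this sum, and without it 11 of the 29 lay above. In all 25 of the 29 were higher than the mean of the 6, with a median difference of 0.77. The 4 included Tbx4, a factor of lung mesenchyme, at 11.8 CPM against 1.03 to 7.81 CPM, Fbn1, a fibrillin, at 140.7 CPM against 13.9 to 125.2 CPM, and Mfap5, a microfibril protein, at 4.82 CPM against 0.831 to 3.86 CPM.

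Of 33 collagen genes 12 lay above the range (36.4%), 6 of them by 2-fold or more, and none below. Of the 12, those named here are collagens of cartilage and not of fibroblasts, apart from Col8a2. Col2a1 stood at 261.0 CPM, while the AT2 tumoroids had 65.6, 30.1 and 2.91 CPM and the BASC mixed tumoroids 106.2, 8.69 and 27.6 CPM. Col9a3 was at 14.8 CPM against 0.805 to 4.25 CPM, Col8a2 at 8.93 CPM against 0.919 to 3.04 CPM, Col11a2 at 64.0 CPM against 4.22 to 27.1 CPM and Col9a1 at 35.5 CPM against 0.124 to 17.2 CPM. Without AT2 replicate 3 the count was 17. Of 34 HOX genes 14 passed the filter on low values. Of these 6 lay above the range (42.9%), 3 with total counts or log2(TPM + 1) and 9 without AT2 replicate 3. Among them were Hoxa5 at 41.7 CPM against 1.52 to 21.4 CPM, Hoxb5 at 5.36 CPM against 0.195 to 3.34 CPM and Hoxa4 at 2.46 CPM against 0.147 to 1.71 CPM. Hoxa4 passed only through the autochthonous tumoroid, and with a filter on the mean of the 6 alone 5 of 13 lay above (38.5%). The cultures hold supporting mesenchymal cells, and the part of those cells in the WNT, TGF-beta, collagen and HOX values was not tested. Markers of vessel and blood cells were low but not all absent. Under 1 CPM in all 7 libraries were 2 of 4 endothelial markers, 2 of 5 macrophage markers and 1 of 2 lymphocyte markers, among which C1qa and Cldn5 had no count in any library. Pecam1 stood above the range at 7.77 CPM against 0.919 to 5.42 CPM and Adgre1 at 0.983 CPM against 0 to 0.868 CPM. Cd79a at 6.97 CPM, Cd68 at 6.52 CPM, Csf1r at 4.33 CPM and Ptprc at 0.715 CPM lay inside. Of 19 macrophage genes 5 passed the filter, and their mean level of 2.45 in log2 CPM lay above the 0.60 to 2.24 of the 6, while the summed level of 35.7 CPM lay inside their 17.8 to 42.3 CPM. Of 17 lymphocyte genes 3 passed, 1 of them (Lck) only through the autochthonous tumoroid. Their mean level was 2.32 against at most 2.09 in the 6, but it includes Lck and so depends on that filter. With a filter on the mean of the 6 alone 1 of 2 genes lay above (50.0%), and no mean level was computed for them. The summed level of all 17 genes, Lck included, was 22.4 CPM against at most 18 CPM. The part of such cells in the other results was not tested.

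Of 29 genes of lipid synthesis 8 lay above the range (27.6%) and none below, with a median difference of 0.42. Elovl1, which elongates long fatty acids, stood at 1501 CPM against 267.3 to 642.6 CPM, Fasn, the fatty acid synthase, at 3665 CPM against 643.5 to 2444 CPM, and Lpl, the lipoprotein lipase, at 270.7 CPM against 36.1 to 168.0 CPM. Genes of the unfolded protein response were above the range for 7 of 19 (36.8%) and below for none, in small steps. With total counts 4 lay above, and 2 lay below without AT2 replicate 1 or without BASC mixed replicate 3. Ern1, the sensor IRE1, stood at 103.5 CPM against 40.7 to 78.4 CPM, Herpud1 at 123.1 CPM against 32.8 to 89.1 CPM and Dnajc3, a chaperone of the endoplasmic reticulum, at 158.6 CPM against 71.4 to 125.8 CPM.

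Of 32 ATF4, serine and amino acid genes 9 lay below (28.1%) and 6 above (18.8%). Those below included the enzymes that build serine and 1-carbon units. Phgdh stood at 50.9 CPM against 76.3 to 167.1 CPM, Psat1 at 80.6 CPM against 123.3 to 220.2 CPM and Mthfd1l at 12.5 CPM against 24.7 to 59.1 CPM. Those above included Cth, which makes cysteine, at 28.9 CPM against 2.18 to 16.4 CPM, the stress factor Ddit3 at 36.8 CPM against 19 to 29.7 CPM, and the glutamine transporter Slc1a5 at 264.1 CPM against 89.5 to 232.3 CPM.

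NRF2 targets showed no shared direction, with 6 of 35 below (17.1%) and 5 above (14.3%), and 10 below without AT2 replicate 3. Gstm2, a glutathione transferase, was at 33.4 CPM against 70.2 to 158.7 CPM, and Gclc, which starts glutathione synthesis, at 496.7 CPM against 188.2 to 399.2 CPM. Of 23 genes of xenobiotic metabolism 6 lay above (26.1%) and 3 below (13.0%), with a median difference of 0.70, and 6 lay below without AT2 replicate 3. Ephx1, an epoxide hydrolase, was at 121.5 CPM against 16.2 to 78.7 CPM, and Cyp2s1, a cytochrome of airway epithelium, at 2.55 CPM against 8.88 to 159.0 CPM.

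**Figure D5:**
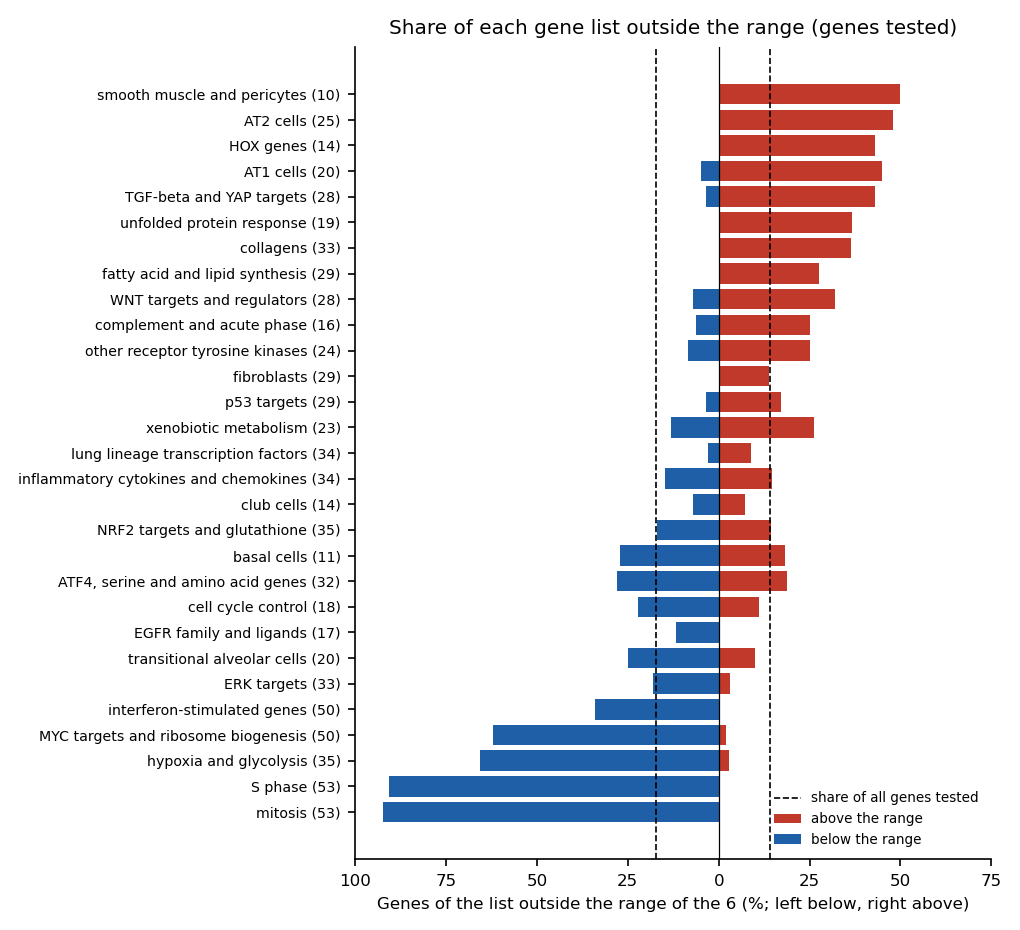
Percent of the tested genes of each of 29 lists (their number in brackets) above the range of the 6 (red, right) and below it (blue, left), with the shares over all genes, 14.0% above and 17.3% below, as dashed lines. S phase and mitosis reach 90.6% and 92.5% below, and smooth muscle, AT2 and AT1 genes 50.0%, 48.0% and 45.0% above.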

How the data were processed

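The sources name Trimmomatic 0.39, STAR 2.6.1d and RSEM 1.3.2 with GRCm38 transcripts. The authors deposited RSEM's expected counts per gene, not scaled between libraries, and beside them RSEM's TPM and FPKM, which correct for transcript length. Expected counts were used for all results, TPM as an alternative, and FPKM were not used.

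Groups were taken from the labels. Expected counts of 46603 genes were rounded, scaled with edgeR 4.0.16 in R 4.3.3 (TMM factors over the 7 libraries) and written as CPM and as log2 CPM with a prior count of 2. A prior count understates the folds of low genes. Genes with a mean of at least 1 CPM over the 7 libraries were kept. A gene was called when the autochthonous value lay above the highest or below the lowest of the 6, and 2-fold calls needed a gap of at least 1. No test was made, since one side held 1 library, and the comparison was checked on simulated data. Symbols and positions of 46091 genes came from GENCODE vM21 (GRCm38), and 512 were not matched. Strand of the libraries is not given in the sources used here.

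The text names the 12 genes with the largest gap on each side (mean CPM of at least 10, no predicted genes or pseudogenes), up to 3 called genes on each side of each of 29 described lists, and 16 fixed genes. Some genes that this rule names are not reported here. Where a gene outside this rule is named, it was chosen after its values were seen. The comparison, the members and the 55 gene lists, written by hand, were chosen with earlier results of these data known. Alternatives were total counts without TMM, DESeq2 1.42.0 size factors, log2(TPM + 1), a prior count of 0.5, no filter or a filter of 10 CPM, an interval that excludes counting error, means by title number, either transplant group alone, the bronchiolar tumoroid added, and each library left out. A filter on the mean of the 6 alone was added after seeing the data. The depth of 23355938 counts puts 3 counts at 0.134 CPM in the autochthonous library, and intervals cover counting error only.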

Additional observations from a re-analysis of the deposited data

Results flagged for a closer look

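For 7 of the 136 named genes compared, 1 of the 6 transplant tumoroids stood far from the other 5. The gap of that library to its nearest neighbour, as a share of the range of the 6 in log2 CPM, passed Dixon's 95% critical value for 6 samples. Chance alone passes it in about 1 of 20 groups. The highest library stood apart for Bst1 (0.670, BASC mixed replicate 3 at 61.6 CPM) and Fosb (0.630). The lowest stood apart for Cxcl3 (0.734), Ddx3y (0.698), Klf4 (0.729), Lmod1 (0.676) and Tfcp2l1 (0.715). The autochthonous tumoroid lay above the range for Cxcl3, Fosb, Klf4, Lmod1 and Tfcp2l1, below it for Bst1 and inside it for Ddx3y. Only for Fosb, with a gap of 0.04, was the library that stood apart the one nearest to the autochthonous value.

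For Foxj1, the transcription factor of ciliated cells, every AT2 tumoroid and every BASC mixed tumoroid lay on opposite sides of the autochthonous tumoroid. The AT2 tumoroids had 1.06, 1.37 and 1.86 CPM, the autochthonous tumoroid 2.37 CPM and the BASC mixed tumoroids 4.77, 17.5 and 6.16 CPM. The autochthonous value was 0.73 (log2 CPM) above the mean of the AT2 tumoroids, and the difference between the 2 transplant groups was not tested.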

How the results depend on the processing

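The genes above the range by at least 2-fold and the genes below the range by at least 2-fold depended most on the settings. They were 66 above and 80 below with log2(TPM + 1), and 42 and 66 among the 9934 genes with a mean of at least 10 CPM. Without a filter 4301 genes lay above the range, 299 of them by 2-fold. Where the counting interval also had to lie outside, genes below the range numbered 1420, 66 by 2-fold. With tumoroids averaged by title number, 3398 lay above, and 217 and 236 were 2-fold above and below. Against the AT2 tumoroids alone those were 267 and 235. Against the BASC mixed tumoroids alone 3660 lay above and 4099 below, 220 and 414 by 2-fold. With 1 of the 6 left out, genes above the range numbered 2065 to 2599, genes below 2465 to 2956, and the 2-fold calls 116 to 203 above and 153 to 234 below. The high values were 203 without BASC mixed replicate 1 and 234 without AT2 replicate 3. Fewer libraries make a range that is easier to leave. Of the 4397 genes outside the range, 86.6% kept their side with total counts, 97.3% with DESeq2 size factors, 74.4% with log2(TPM + 1) and 63.4% with the counting interval.

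The other 53 counts stayed within 1.5 times, among them those with a filter on the mean of the 6 alone, chosen after seeing the data (genes above the range 1907, genes below the range 2451, by 2-fold 92 and 153). Of 406 list medians 405 moved by less than the spread of the 6, and the MYC and ribosome list moved to -0.43 with total counts. For differences of named genes 1908 did and 10 did not, and none changed sign among those called. Counts of gene lists moved more. Averaged by title number, 24.1% of all genes tested lay above the range. Among them were 22 of the 29 fibroblast genes, 25 of 33 collagens, 16 of 28 WNT and 15 of 29 lipid genes. So were 14 of 20 AT1, 11 of 16 complement and 10 of 14 HOX genes. Against the BASC mixed tumoroids alone 19 of 33 collagens, 18 of 28 WNT and 17 of 29 lipid genes lay above. The share of all genes tested above the range was also higher in this setting than against all 6. Below lay 12 of 33 ERK targets, 12 of 35 NRF2 targets and 11 of 34 inflammatory genes, near the 29.1% of all genes tested. So did 11 of 20 transitional and 9 of 23 xenobiotic genes. Against the AT2 tumoroids alone 10 of 29 p53 targets and 10 of 23 xenobiotic genes lay above, beside 18.8% of all genes tested. With the bronchiolar tumoroid added, 13.0% of all genes tested lay above. Among them were 7 of 28 TGF-beta and YAP targets, 3 of 35 NRF2 targets and 2 of 34 inflammatory genes. Counts below the range for S phase, mitosis and hypoxia genes stayed within 1.5 times in every setting run on the lists. Medians near 0 changed sign in some alternatives for basal, cell cycle control, EGFR family, inflammatory and NRF2 lists, for which no direction is given. No paired analysis was possible because the labels give the single autochthonous tumoroid no matched partner among the 6, and no test was made.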

Other observations

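Processed copies of genes gave some of the widest gaps. Fabp5, which encodes a fatty acid carrier of AT2 cells, was inside the range at 443.1 CPM against 120.2 to 626.3 CPM. Its copy Gm6166 held 22 counts, or 0.983 CPM, in the autochthonous tumoroid and 86.2 to 566.6 CPM in each transplant tumoroid. Pgk1-rs7, a copy of Pgk1, stood at 0.223 CPM against 13.4 to 227.5 CPM. Summed with their copies, Fabp5 stood at 444.5 CPM against 206.7 to 1193 CPM and Pgk1 at 305.1 CPM against 934.5 to 2658 CPM, so that Fabp5 stayed inside the range and Pgk1 below it. Gm14434 and Gm10169 had no count in the autochthonous tumoroid, which allows up to 0.134 CPM, and at least 2.34 and 2.21 CPM in each of the 6. Mettl7a1 was above the range at 747.0 CPM against 57.4 to 283.5 CPM, while its close relatives Mettl7a2 and Mettl7a3 were below it at 1.47 CPM against 4.03 to 27.7 CPM and 0.313 CPM against 2.54 to 14.5 CPM. These genes were picked after their values were seen, and reads that fit several copies cannot be told apart here.

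Xist, which is expressed from the inactive X chromosome of female cells, stood above the range at 35.6 CPM against 3.38 to 17.1 CPM, and Ddx3y, a gene of the Y chromosome, inside it at 42.97 CPM against 0.293 to 44.6 CPM. Both were present in the same culture, which also holds supporting cells whose sex is not given in the sources used here. C6, a further component of the membrane attack complex, stood at 52.1 CPM against 0.0836 to 5.45 CPM beside Hc. Cartilage genes outside the collagens were above the range too, with Acan at 39.6 CPM against 1.61 to 23.2 CPM and Cnmd at 3.53 CPM against 0.0619 to 1.39 CPM, while Sox9 lay inside at 19.6 CPM against 5.41 to 63.6 CPM. These genes were also chosen after their values were seen.

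Of the lists not described above, 1 of 8 class II MHC genes lay above the range and none below, and all 22 class I genes lay inside. Of 12 genes of PRC2 subunits 4 lay below (33.3%) and none above. Of 16 genes that differ between mouse strains 4 lay below (25%) and none above. Of 13 mitochondrial DNA genes 2 lay above. Median deviations of whole chromosomes from the other libraries ran from -0.13 (chromosome 17) to 0.10 (chromosome 18) in the autochthonous tumoroid, less than the widest values among the 6, which were -0.26 and 0.35 in AT2 replicate 3.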
